A study of Mus musculus with 48 samples.

Results

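The 8 genes described here are transcribed mainly in cells of the blood and their precursors: 4 are genes of erythrocytes (Hba-a1, Alas2, Slc4a1 and Epb42) and 4 are genes of neutrophils (S100a8, S100a9, Camp and Lcn2). Their members are all probe sets that the platform annotation gives to one of these symbols and to no other gene. That rule found 10 probe sets among 12422, and 8 genes among the 8251 symbols on the array. Epb42 and Lcn2 have 2 probe sets each. A further probe set is annotated to both alpha-globin genes, Hba-a2 and Hba-a1, and was kept apart.

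Transcript levels were measured in mouse amygdala and hippocampus on 48 one-colour oligonucleotide arrays. The amygdala gave 6 FC, 6 CS and 10 NH arrays, and the hippocampus gave 8 FC, 8 CS and 10 NH arrays. The arm names are bare codes in the labels, and the series title supports reading them as fear conditioned (FC), conditioned stimulus alone (CS) and naive home cage (NH). Strain, genotype, sex, age, the time between session and dissection, and whether vessels were flushed before dissection are not given in the labels. Nothing in the labels states that replicates are different animals. The p-values then reflect nothing beyond the spread among arrays, some of which may be technical. Levels are log2 of the deposited intensity, so a difference of 1 is a doubling.

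Erythrocytes lose their nucleus as they mature, but young ones carry globin messenger RNA for some days. Neutrophils store antimicrobial proteins made earlier in the bone marrow, and healthy brain tissue holds few of them outside its vessels. Both cell types therefore reach a dissected brain region chiefly through the blood in its vessels, although globin and Lcn2 transcripts have also been described in brain cells. In tissue lysed as a whole, fewer cells of a type and less RNA per cell cannot be told apart.

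Hba-a1 encodes an adult alpha chain of haemoglobin and lies at chr11:32283672-32284486 in GRCm38.p6. Alas2, at chrX:150547417-150570622, encodes the erythroid enzyme that starts haem synthesis. Slc4a1, at chr11:102348820-102365281, encodes band 3, the anion exchanger of the red cell membrane. Epb42, at chr2:121017891-121036877, encodes protein 4.2, which binds band 3 to the membrane skeleton. S100a8 (chr3:90669071-90670034) and S100a9 (chr3:90692630-90695721) encode the calcium-binding partners that form calprotectin in the neutrophil cytosol. Camp, at chr9:109847377-109849456, encodes the cathelicidin antimicrobial peptide. Lcn2, at chr2:32384637-32387739, encodes lipocalin 2, a granule protein that binds bacterial iron carriers.

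Erythroid promoters often hold sites for the factor GATA1. The stretch before the start of the globin gene and of the haem synthesis enzyme is shown, because how far this pair varied together is described below. Capitals mark a match to GATA with A or T before it and A or G after it, on either strand.
Hba-a1, chr11:32283422-32283671, plus strand: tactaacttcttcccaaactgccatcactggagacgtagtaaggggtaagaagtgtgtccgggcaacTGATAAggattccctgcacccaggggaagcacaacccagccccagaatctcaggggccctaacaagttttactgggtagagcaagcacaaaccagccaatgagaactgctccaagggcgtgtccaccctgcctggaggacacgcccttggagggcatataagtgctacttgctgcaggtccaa
Alas2, chrX:150547167-150547416, plus strand: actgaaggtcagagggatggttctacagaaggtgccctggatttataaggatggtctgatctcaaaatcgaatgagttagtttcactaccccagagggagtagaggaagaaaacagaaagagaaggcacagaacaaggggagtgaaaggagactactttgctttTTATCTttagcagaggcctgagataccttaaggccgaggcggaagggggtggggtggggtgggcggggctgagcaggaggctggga
The Hba-a1 match begins 183 bases before the start and the Alas2 match, on the reverse strand, 86 bases before it. RefSeq's promoter table (GRCm38.p6) held 7 of the 8 members, with 250 bases before and 50 after each start. Within those windows Epb42, S100a9 and Camp also had a match, and S100a8 and Lcn2 had none. Of all 32851 windows in the table, 29.8% held at least 1 match, so a match by itself does not set a gene apart.

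On each array a probe set was ranked by its percentile among all probe sets. Hba-a1 lay at a mean percentile of 97.7 in amygdala and 98.0 in hippocampus. Camp lay at 70.7 and 66.0, Alas2 at 58.8 and 54.5, and Slc4a1 at 44.9 and 44.7, with amygdala first. The brighter Epb42 probe set lay at 50.4 in amygdala and 49.8 in hippocampus, and the brighter Lcn2 probe set at 52.1 and 51.3. S100a8 lay at 18.0 in amygdala and 18.2 in hippocampus, S100a9 at 13.8 and 14.7. The dim probe sets of Epb42 and Lcn2 lay at 5.6 and 4.6 in amygdala and at 5.4 and 5.9 in hippocampus. Percentiles of different probe sets depend on their probes and do not rank the genes. With the 40% dimmest probe sets of each tissue left out, 6 of the 10 member probe sets were among the 7453 tested in either tissue, namely those of Hba-a1, Alas2, Slc4a1 and Camp and the brighter ones of Epb42 and Lcn2. S100a8, S100a9 and the dim probe sets of Epb42 and Lcn2 were left out, and their differences come from the same fit over all 12422 probe sets. Of the neutrophil members, S100a8 and S100a9 were therefore at the dim end in every arm of both tissues, while Camp and the brighter Lcn2 probe set were not.

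Array medians ranged between 52.3 and 56.1 in amygdala and between 76.5 and 80.8 in hippocampus, which points to a separate normalization of each tissue, and levels are not compared between them. Arrays of a tissue correlated at r of 0.987 to 0.998 in amygdala and 0.982 to 0.999 in hippocampus. Among hippocampal neuron genes, Neurod6 lay at a mean percentile of 35.0 in amygdala and 82.2 in hippocampus, Prox1 at 11.5 and 38.3, and Dsp at 17.5 and 67.3. Wfs1 lay at 94.1 and 89.0 and Calb1 at 93.6 and 87.5, higher in amygdala on average. Each array carries a processing batch in its label. Amygdala batch 1 holds 6 NH arrays alone and hippocampus batch 7 another 6 NH arrays alone. With the batch as a block, each difference from NH rests on 4 NH arrays per tissue, those processed together with FC or CS arrays, and the comparisons of FC and of CS with NH share those arrays. The probe sets that passed an adjusted p of 0.05 between arms belonged to Fos in both tissues, and in amygdala FC minus NH also to Junb, Dusp1, Nr4a1, Egr1, Egr2 and Gadd45g.

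Hba-a1 was the most variable of the 10 probe sets. In amygdala its intensity ran between 487 and 1300 over the 22 arrays, a 2.67-fold range, and its SD of log2 values exceeded that of 99.1% of the probe sets tested. In hippocampus it ran between 639 and 1815 over 26 arrays, a 2.84-fold range, with an SD above that of 97.3%. The other member probe sets covered ranges of 1.25-fold to 1.65-fold in either tissue. Alas2 in amygdala was at the low end with 1.25-fold, and its SD exceeded that of 8.77% of the probe sets tested.

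In amygdala, Hba-a1 had log2 levels with a lowest, median and highest value of 9.57, 9.82 and 10.22 in FC arrays, 9.58, 9.77 and 10.34 in CS arrays, and 8.93, 9.49 and 10.02 in NH arrays. Group means were 9.84 ± 0.243 in FC (SD, n = 6), 9.84 ± 0.278 in CS (SD, n = 6) and 9.48 ± 0.297 in NH (SD, n = 10). The arms overlapped, but the low end was held by the 6 NH arrays of batch 1, all between 8.93 and 9.51 and all below every other amygdala array. The 3 NH arrays of batch 2 lay between 9.59 and 9.68, and the single NH array of batch 3 at 10.02. Within batches, Hba-a1 differed by 0.10 between FC and NH (limma, SE 0.137, 95% interval -0.19 to 0.38, adjusted p = 0.914). For CS minus NH the difference was 0.08 (SE 0.140, 95% interval -0.20 to 0.37, adjusted p = 0.952), and for FC minus CS it was 0.01 (SE 0.124, adjusted p = 0.9995). The batches did not share a direction: CS minus NH was 0.36 in batch 2, with 3 arrays in each arm, and -0.34 in batch 3, with 3 CS arrays and 1 NH array. FC minus CS was -0.28 in batch 2 and 0.39 in batch 3.

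In hippocampus, the lowest, median and highest log2 levels of Hba-a1 were 9.98, 10.35 and 10.54 in FC arrays, 9.68, 10.22 and 10.83 in CS arrays, and 9.32, 10.09 and 10.32 in NH arrays. Means were 10.33 ± 0.210 in FC (SD, n = 8), 10.26 ± 0.317 in CS (SD, n = 8) and 10.02 ± 0.290 in NH (SD, n = 10). The arms overlapped here too, and 1 CS array of batch 4 was the highest of the tissue while another of the same arm and batch was the second lowest. The NH arrays of batch 7 lay between 9.32 and 10.12, and the 4 NH arrays in shared batches between 10.13 and 10.32. The difference within batches was 0.06 for FC minus NH (SE 0.159, 95% interval -0.27 to 0.38), -0.02 for CS minus NH (SE 0.161, 95% interval -0.35 to 0.31) and 0.08 for FC minus CS (SE 0.121, 95% interval -0.17 to 0.33). Each had an adjusted p of 0.9999 in limma.

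Without a batch term, the same Hba-a1 differences were larger. In amygdala they came to 0.36 for FC minus NH (adjusted p = 0.105) and 0.36 for CS minus NH (adjusted p = 0.143), and in hippocampus to 0.31 and 0.24, with adjusted p of 0.9998 and 0.9995 in limma. These values set the NH arrays of batches 1 and 7 against FC and CS arrays of other batches. At equal arm, Hba-a1 was higher in amygdala batch 2 than in batch 1 by 0.41 (SE 0.140, 95% interval 0.12 to 0.70) and in batch 3 than in batch 1 by 0.49 (SE 0.161, 95% interval 0.16 to 0.82). Between batches 3 and 2, which both held every arm, the difference was 0.08 (SE 0.112, 95% interval -0.15 to 0.31). In hippocampus the difference was -0.39 for batch 7 minus batch 4 (SE 0.171, 95% interval -0.74 to -0.04), -0.43 for batch 7 minus batch 5 (SE 0.197, 95% interval -0.83 to -0.02) and -0.34 for batch 7 minus batch 6 (SE 0.171, 95% interval -0.69 to 0.01), the last of which included 0. The batch F-test of limma gave Hba-a1 an adjusted p of 0.0512 in amygdala and 0.273 in hippocampus, neither past the threshold. For the NH arrays of batches 1 and 7 themselves, batch and whatever else set those arrays apart cannot be told apart.

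**Figure D1:**
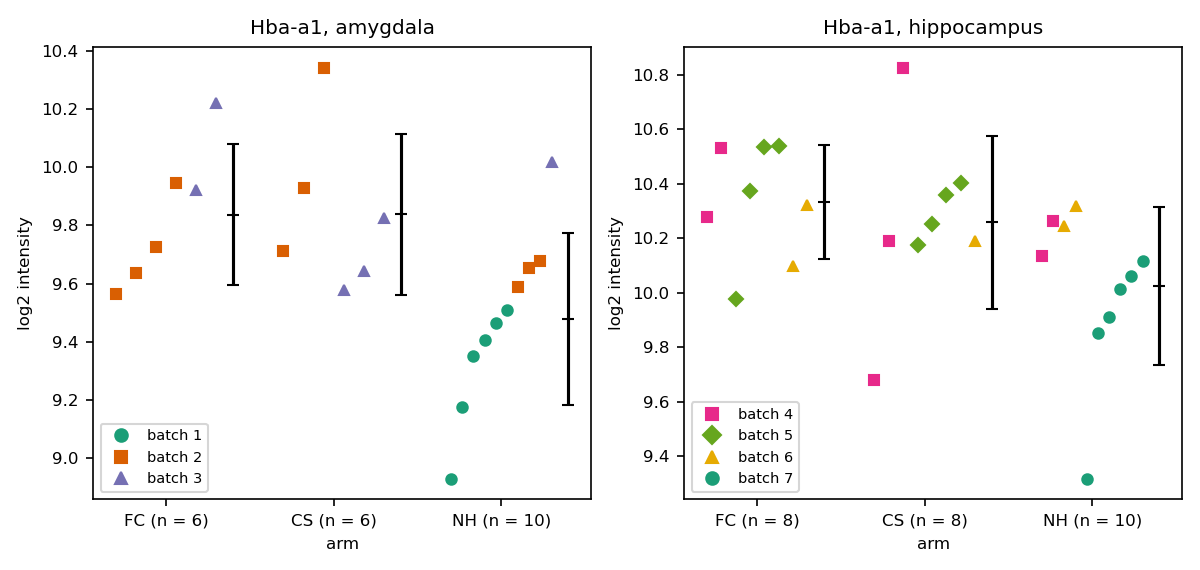
Log2 intensity of Hba-a1 on each array of amygdala (left) and hippocampus (right), by arm, with colour and marker for the processing batch and arrays ordered by batch and value within an arm. Bars beside the points are the mean and SD of the arm. The 6 NH arrays of batch 1 lie below every other amygdala array, and hippocampus NH replicate 64 in batch 7, at 9.32, is the lowest of its tissue.

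The other globins show whether Hba-a1 stood alone. After the mean of each arm and batch was taken off, Hbb-b2, an adult beta-globin gene, varied with Hba-a1 at Pearson's r of 0.91 over 22 amygdala arrays (rho 0.86, adjusted permutation p = 0.00168 for r and 0.00238 for rho). In hippocampus r was 0.79 over 26 arrays (rho 0.76, adjusted permutation p = 0.00546 and 0.00238). An array alone in its arm and batch adds nothing to r, which leaves 21 arrays in amygdala and 25 in hippocampus. Without the 2 arrays farthest from the median of Hba-a1, r was 0.85 in amygdala and 0.80 in hippocampus. The probe set shared by both alpha-globin genes gave r of 0.70 in amygdala and 0.80 in hippocampus (adjusted permutation p = 0.0202 for either). The embryonic genes Hba-x, Hbb-bh1 and Hbb-y and the pseudogene Hba-ps3 did not pass in either tissue, with r between -0.07 and 0.37, and 14 globin relations were computed. The probe sets of Hba-x and Hbb-y lay below the brightness filter in both tissues, which limits what their r can show. Globin genes of a family are close in sequence, so which copy a probe set reports is uncertain.

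Hbb-b2 did not repeat the batch difference of Hba-a1 in amygdala, where batch 2 exceeded batch 1 by 0.06 (SE 0.121) and batch 3 exceeded batch 1 by 0.09 (SE 0.139). The probe set shared by both alpha-globin genes did, with 0.22 (SE 0.0731) and 0.19 (SE 0.0841), and both intervals lay above 0. In hippocampus Hbb-b2 was lower in batch 7, with differences of -0.33 from batch 4 (SE 0.149), -0.44 from batch 5 (SE 0.172) and -0.41 from batch 6 (SE 0.149), and all 3 intervals lay below 0. The shared probe set gave -0.39, -0.38 and -0.30 there, also with intervals below 0. The batch F-test of limma gave Hbb-b2 an adjusted p of 0.865 in amygdala and 0.152 in hippocampus. For the shared probe set it gave 0.0665 and 0.0847. Over all probe sets tested, the genes whose values within arm and batch were most like those of Hba-a1 were Hbb-b2, Rdh13 (0.78), Ryk (0.70), Epb41l2 (0.69) and Stk19 (0.68) in amygdala. In hippocampus they were Atp5pb (0.79), Hbb-b2, Calb2 (0.73), Mtch1 (0.71) and Coro1a (0.70). Hbb-b2 was the name in both sets of 5.

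**Figure D2:**
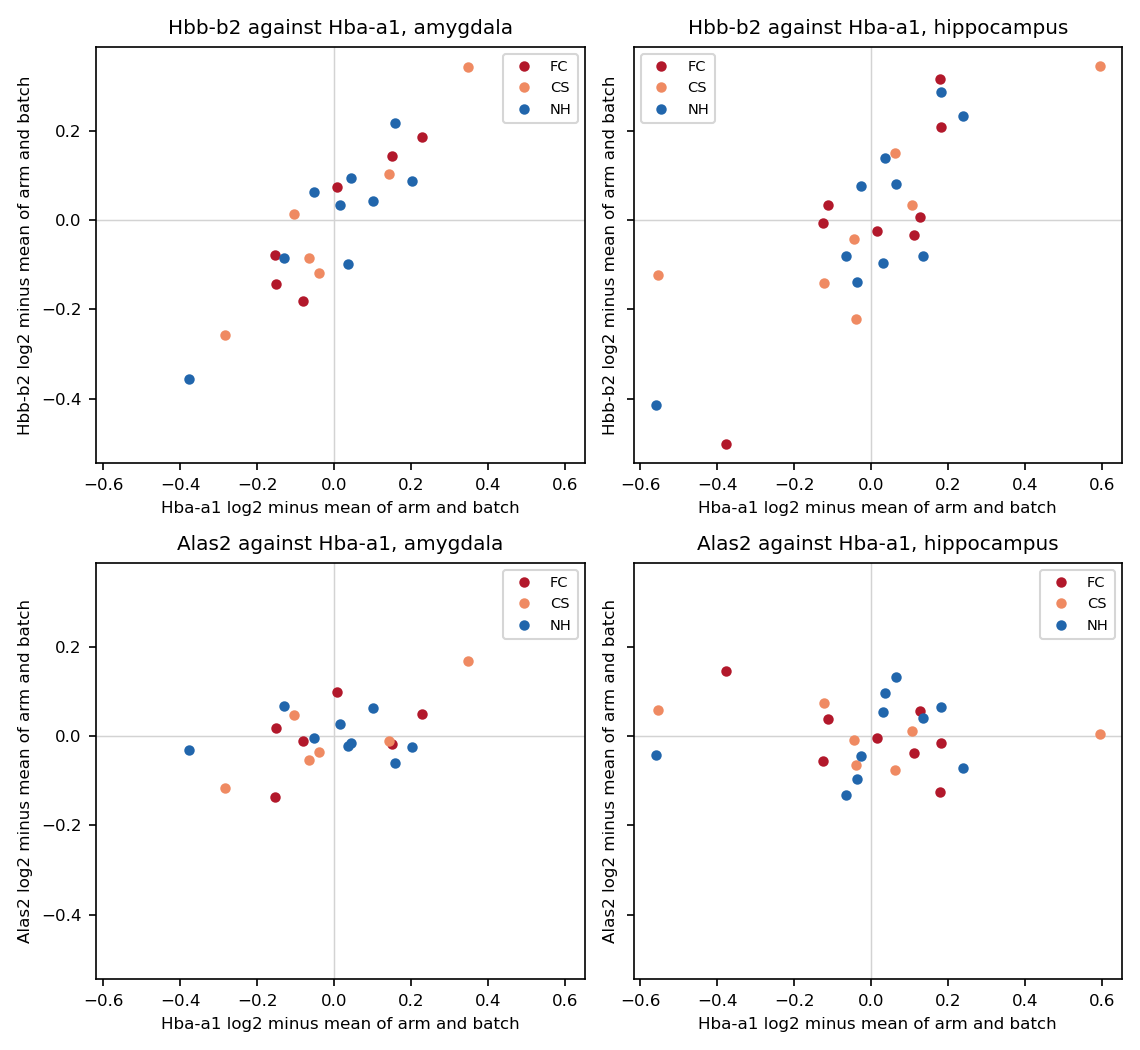
Log2 intensity of Hbb-b2 (top) and Alas2 (bottom) against that of Hba-a1, each minus the mean of its arm and batch, with 1 point per array, amygdala on the left and hippocampus on the right. Arrays alone in their arm and batch are not drawn. Hbb-b2 follows Hba-a1 at r of 0.91 and 0.79, while Alas2 has r of 0.47 in amygdala and -0.14 in hippocampus.

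Alas2, the haem synthesis enzyme, had lowest, median and highest log2 levels in amygdala of 6.05, 6.19 and 6.29 in FC arrays, 6.08, 6.21 and 6.36 in CS arrays, and 6.07, 6.16 and 6.30 in NH arrays. In hippocampus they were 6.34, 6.49 and 6.73 in FC arrays, 6.16, 6.50 and 6.64 in CS arrays, and 6.39, 6.49 and 6.75 in NH arrays. The arms lay over one another almost throughout, with a single low CS array in hippocampus batch 6. Within batches the largest of its differences was -0.13 in hippocampus CS minus NH (SE 0.0719, 95% interval -0.28 to 0.02, limma adjusted p = 0.9999). Batch 4 alone, with 3 CS and 2 NH arrays, gave -0.03 for that comparison. Batch 6 alone gave -0.43, from that single low CS array against 2 NH arrays. In amygdala the Alas2 differences were -0.02 for FC minus NH (SE 0.0553) and -0.01 for CS minus NH (SE 0.0563).

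Batch, in contrast to arm, did pass for Alas2. In the hippocampus F-test at equal arm its adjusted p in limma was 0.0445, and it was the only 1 of the 6 member probe sets tested that passed. That test called 25% of all probe sets in hippocampus and 26.2% in amygdala, where 0 of the 6 passed, so the members' share was at or below the share of the array as a whole. Set against hippocampus batch 4, the Alas2 difference was -0.13 for batch 5 (SE 0.0587), -0.18 for batch 6 (SE 0.0639) and -0.23 for batch 7 (SE 0.0762), and all 3 intervals lay below 0. The call was lost under all 3 alternatives run: with no filter (adjusted p = 0.0519), after quantile normalization (adjusted p = 0.0560) and with only batches of more than 1 arm (adjusted p = 0.0843). Among the probe sets below the filter, the dim one of Epb42 passed in the fit of all probe sets in amygdala (adjusted p = 0.0451) and in hippocampus (adjusted p = 0.0285), where 22.4% and 20.6% of all probe sets did.

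Slc4a1 had lowest, median and highest log2 levels in amygdala of 5.21, 5.37 and 5.56 in FC arrays, 5.11, 5.47 and 5.67 in CS arrays, and 5.42, 5.58 and 5.83 in NH arrays. The NH arrays reached higher than the other arms, and the arms overlapped. Its differences within batches were -0.12 for FC minus NH (SE 0.0839, adjusted p = 0.894) and -0.12 for CS minus NH (SE 0.0855, adjusted p = 0.942) in limma. In hippocampus the values were 5.94, 6.03 and 6.20 in FC arrays, 5.78, 5.99 and 6.17 in CS arrays, and 5.83, 6.01 and 6.18 in NH arrays, with 0.09 for FC minus CS (SE 0.0558) as the largest of its differences there.

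The bright Epb42 probe set had lowest, median and highest log2 levels in amygdala of 5.60, 5.68 and 6.05 in FC arrays, 5.61, 5.74 and 5.86 in CS arrays, and 5.63, 5.82 and 6.07 in NH arrays. In hippocampus they were 6.10, 6.29 and 6.57 in FC arrays, 6.02, 6.24 and 6.43 in CS arrays, and 6.03, 6.33 and 6.44 in NH arrays. The arms overlapped in both tissues. The largest of its differences was -0.14 in hippocampus CS minus NH (SE 0.0856), for which the dim probe set gave -0.05 (SE 0.0620). The 95% intervals of both included 0. The dim probe set held log2 levels between 2.69 and 3.11 in amygdala and between 3.13 and 3.56 in hippocampus.

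Of the neutrophil genes, S100a8 had lowest, median and highest log2 levels in amygdala of 3.70, 3.77 and 3.91 in FC arrays, 3.74, 3.77 and 3.87 in CS arrays, and 3.66, 3.86 and 3.99 in NH arrays. In hippocampus these were 4.31, 4.42 and 4.59 in FC arrays, 4.28, 4.35 and 4.54 in CS arrays, and 4.28, 4.45 and 4.60 in NH arrays. The whole range of the gene was thus 1.25-fold in either tissue. Its partner S100a9 had 3.28, 3.53 and 3.71 in FC arrays, 3.28, 3.63 and 3.66 in CS arrays, and 3.32, 3.53 and 3.66 in NH arrays of amygdala. In hippocampus S100a9 had 3.96, 4.16 and 4.35 in FC arrays, 3.96, 4.14 and 4.39 in CS arrays, and 3.99, 4.12 and 4.23 in NH arrays. For this pair all differences between arms lay between -0.10 (S100a8, hippocampus CS minus NH, SE 0.0690) and 0.06 (S100a8, hippocampus FC minus CS, SE 0.0520).

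Camp had lowest, median and highest log2 levels in amygdala of 6.48, 6.70 and 6.84 in FC arrays, 6.50, 6.86 and 6.92 in CS arrays, and 6.67, 6.78 and 6.99 in NH arrays. In hippocampus they were 6.99, 7.06 and 7.18 in FC arrays, 6.85, 7.06 and 7.10 in CS arrays, and 6.93, 7.03 and 7.20 in NH arrays. Nothing separated the arms of this granule gene. Its differences were -0.08 in amygdala FC minus NH (SE 0.0738) and 0.07 in hippocampus FC minus NH (SE 0.0587), opposite in sign, and both 95% intervals included 0.

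The bright Lcn2 probe set, whose identifier carries the suffix for probes chosen under relaxed design rules, gave the single unadjusted p under 0.05 among the members' arm comparisons. In amygdala its lowest, median and highest log2 levels were 5.65, 5.82 and 6.17 in FC arrays, 5.48, 5.84 and 6.03 in CS arrays, and 5.56, 5.87 and 6.15 in NH arrays. CS minus NH was -0.19 (SE 0.0931, 95% interval -0.39 to -0.0027), with an unadjusted p of 0.0471 and an adjusted p of 0.942 in limma. Batch 2 alone gave -0.24, with 3 arrays in each arm, and batch 3 alone -0.17, with 3 CS arrays and 1 NH array. That NH array, at 6.15, was the highest NH array of this probe set in amygdala. The dim probe set of the same gene gave -0.03 (SE 0.0700) for that comparison. For amygdala FC minus CS the bright probe set gave 0.07 (SE 0.0826) and the dim one -0.09 (SE 0.0620), with opposite signs. In hippocampus the bright probe set had 6.03, 6.33 and 6.61 in FC arrays, 6.03, 6.37 and 6.68 in CS arrays, and 6.12, 6.37 and 6.62 in NH arrays.

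**Figure D3:**
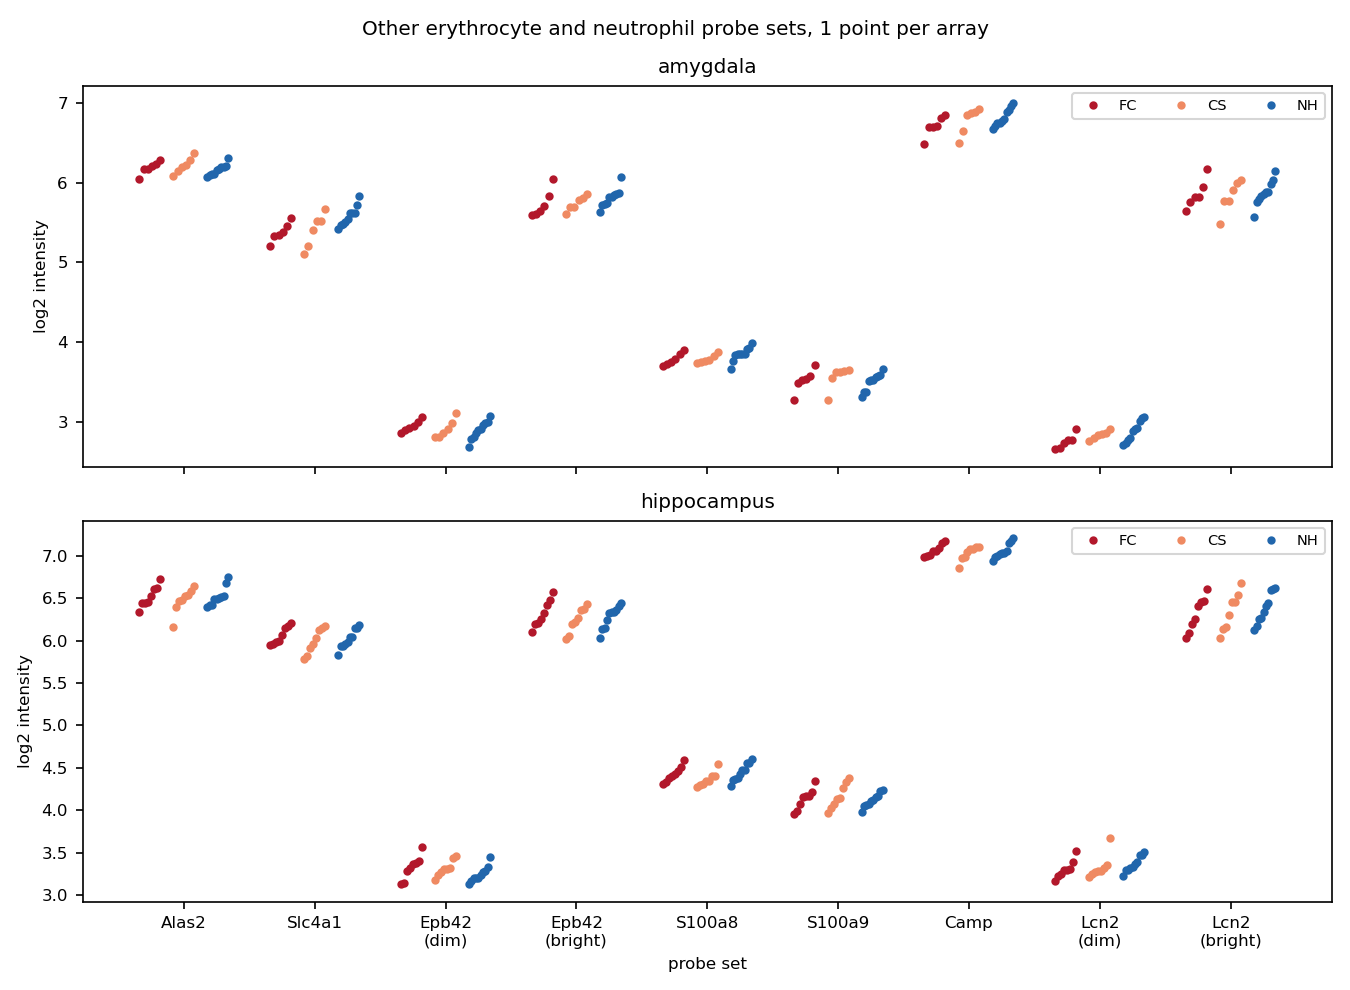
Log2 intensity of the 9 other member probe sets on each array of amygdala (top) and hippocampus (bottom), with FC, CS and NH arrays in red, orange and blue and values sorted within an arm. For every probe set the 3 arms overlap, and the ranges over all arrays of a tissue are 1.25-fold to 1.65-fold.

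None of the members passed in any of the 6 comparisons between arms. In amygdala 0 of the 6 member probe sets tested passed for FC minus NH, where 0.0939% of all probe sets did, 0 for CS minus NH, where 0.0134% did, and 0 for FC minus CS, where 0% did. In hippocampus 0 of 6 passed for FC minus NH (0.0134% of all), for CS minus NH (0.0134%) and for FC minus CS (0%). These counts lie near the share of the whole array and say nothing particular about the members. The smallest adjusted p among the members in limma was 0.894, in amygdala FC minus NH. At an unadjusted p under 0.05, the 3 amygdala comparisons held 384, 292 and 92 probe sets and the 3 hippocampus comparisons 169, 108 and 57, in the same order, and 1 of these was a member. The arms of no member were fully apart.

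The direction of the 10 member probe sets is described by its counts. In amygdala, 2 of 10 were positive for FC minus NH (median -0.06), 3 for CS minus NH (median -0.03) and 4 for FC minus CS (median -0.01). In hippocampus, 3 were positive for FC minus NH (median -0.04), 1 for CS minus NH (median -0.06) and 8 for FC minus CS (median 0.05). The median over all probe sets lay between -0.01 and 0.00 in each of these, with 46.9% to 53.7% positive. Most member differences from NH were thus small and negative, while Hba-a1 was positive in 3 of its 4. The 95% intervals of all members in all 6 comparisons lay between -0.39 and 0.38.

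**Figure D4:**
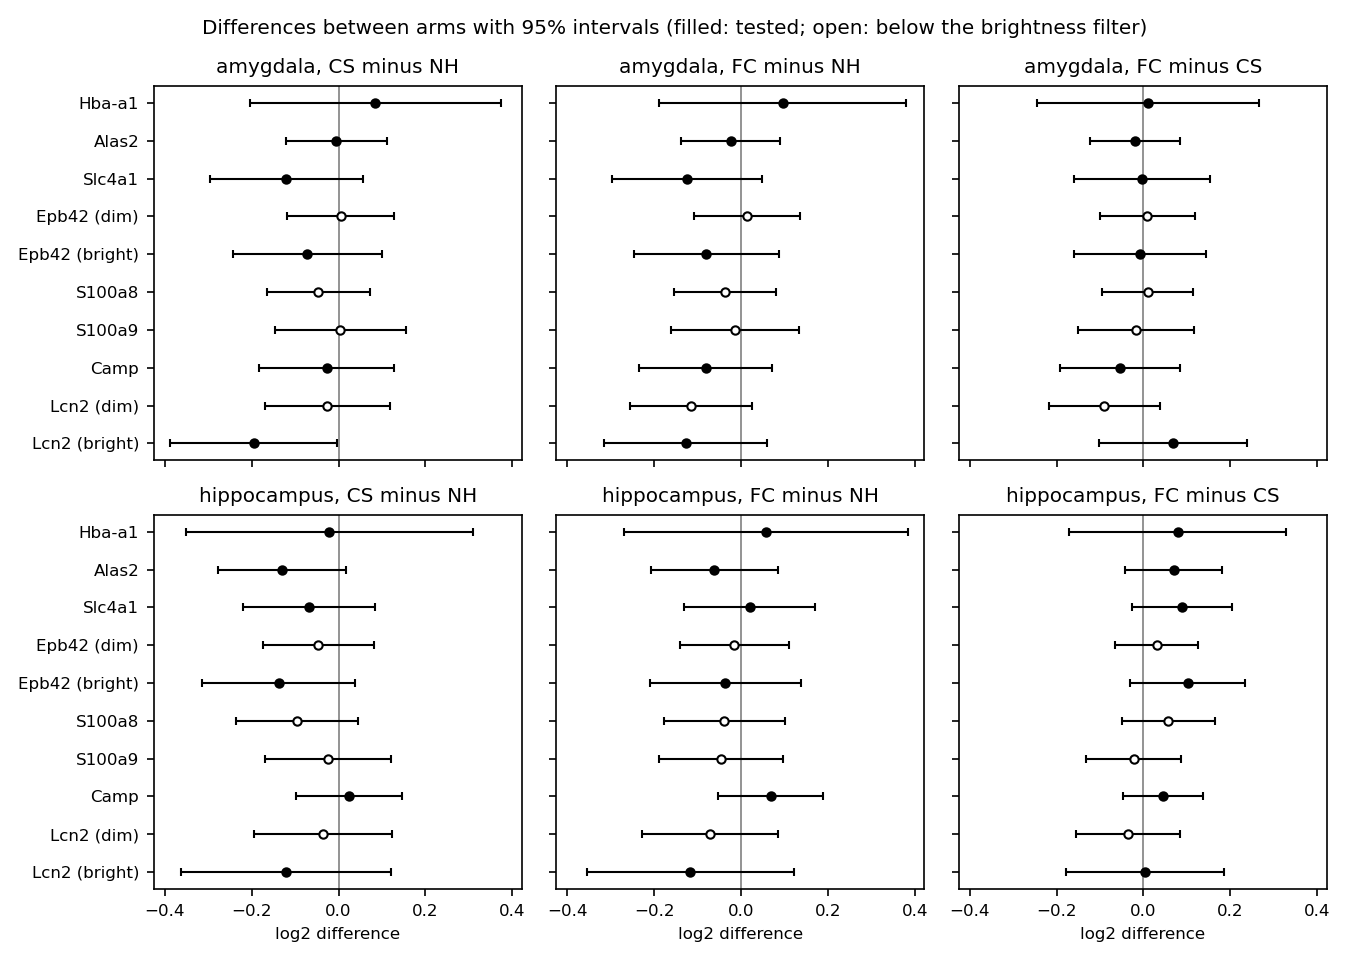
Log2 differences between arms for the 10 member probe sets with their 95% intervals, in amygdala (top) and hippocampus (bottom), fitted by limma within batches. Filled points were tested and open points lay below the brightness filter. Hba-a1 has the widest interval in each panel, and the interval of the bright Lcn2 probe set in amygdala CS minus NH is the single one that ends short of 0.

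A joint fit of all 48 arrays set each arm comparison in amygdala against the same comparison in hippocampus. For Hba-a1 the amygdala difference minus the hippocampus difference was 0.04 for FC minus NH (SE 0.222), 0.11 for CS minus NH (SE 0.226) and -0.07 for FC minus CS (SE 0.185). No member passed in any of the 3 contrasts, with adjusted p of 0.981 or above in limma, and 0% of the 7242 probe sets in that fit did, with 248, 183 and 99 at an unadjusted p under 0.05. Camp had the smallest unadjusted p of the members, with -0.15 for FC minus NH (SE 0.0935, 95% interval -0.34 to 0.04, unadjusted p = 0.115).

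The members were then compared with each other from array to array, on values minus the mean of their arm and batch and with the brighter probe set of Epb42 and Lcn2. Of 56 pairs over both tissues, 13 had an adjusted permutation p under 0.05 for Pearson's r, 2 of 28 in amygdala and 11 of 28 in hippocampus. For 9 of the 13, Spearman's rho passed as well. The median r was 0.31 in amygdala (24 of 28 positive) and 0.45 in hippocampus (21 of 28 positive). Hba-a1 took part in none of the pairs that passed: its 7 pairs had r between -0.11 and 0.47 in amygdala and between -0.32 and -0.02 in hippocampus.

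In amygdala the pairs that passed were Epb42 with Lcn2 (r 0.90, rho 0.78, adjusted permutation p = 0.00084 and 0.0109) and Slc4a1 with Epb42 (r 0.72, rho 0.63, adjusted p = 0.0237 and 0.0727). In hippocampus the highest were Slc4a1 with Lcn2 (r 0.81, rho 0.82, adjusted permutation p = 0.00084 and 0.00896) and S100a9 with Camp (r 0.78, rho 0.77, adjusted p = 0.0227 and 0.0192). Epb42 passed there with Camp (0.75), Lcn2 (0.74), S100a9 (0.71), Slc4a1 (0.65) and S100a8 (0.62). Of the 13 pairs in both tissues, 9 joined an erythrocyte gene to a neutrophil gene, as did 32 of all 56 pairs. Leaving out the 2 arrays farthest from the median of the first gene left r at 0.82 for Epb42 with Lcn2 in amygdala and at 0.77 for Slc4a1 with Lcn2 in hippocampus. S100a8 and S100a9, whose proteins form a complex, had r of 0.02 in amygdala and 0.37 in hippocampus, and neither passed.

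Large values of r, of either sign, were common on these arrays, though the highest pairs of members stood above most of them. Over all probe sets tested, the middle 95% of r with Lcn2 ran between -0.82 and 0.78 in amygdala and between -0.74 and 0.76 in hippocampus, and with Epb42 between -0.82 and 0.80 and between -0.77 and 0.78. For Hba-a1 the same span was narrower, -0.45 to 0.43 in amygdala and -0.44 to 0.49 in hippocampus. For Epb42 with Lcn2 in amygdala, 0.201% of the probe sets tested had a higher r with Epb42 and 0.0537% with Lcn2. For Slc4a1 with Lcn2 in hippocampus, the shares were 0.416% with Slc4a1 and 0.993% with Lcn2. For S100a9 with Camp there, they were 0.121% with S100a9 and 1.38% with Camp. For Alas2 with Lcn2 in hippocampus, which also passed, they were 6.56% with Alas2 and 16.3% with Lcn2. The genes most like S100a8 were Spout1 (0.75), Nexmif (0.75), Elovl1 (0.75), Klf9 (0.73) and Ranbp10 (0.73) in amygdala and Cbfa2t3 (0.85), Crygc (0.83), Syngr4 (0.82), Igha (0.80) and Cdc25c (0.80) in hippocampus. No other member was among them. The arrays share their labelling, hybridisation and normalization, and the part of these in the correlations was not tested.

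**Figure D5:**
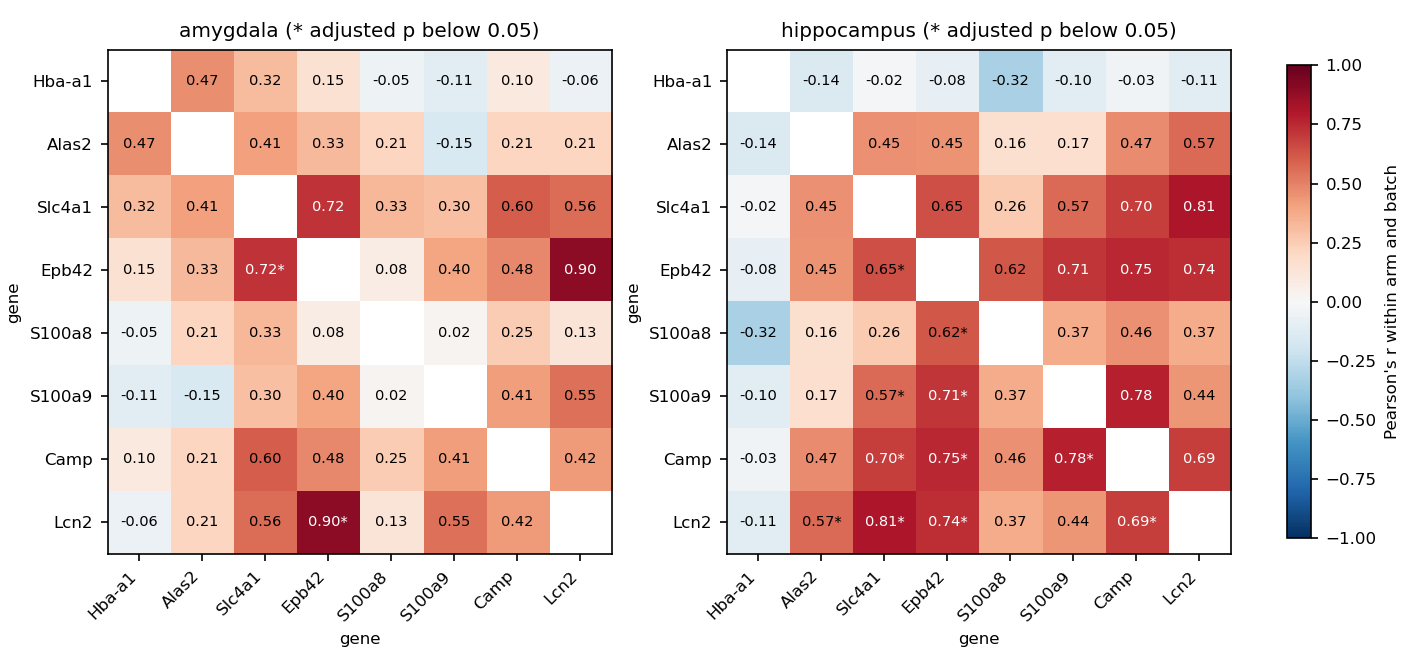
Pearson's r between the members over the arrays of amygdala (left) and hippocampus (right), on log2 values minus the mean of arm and batch, with an asterisk in the lower triangle where the adjusted permutation p is under 0.05. No pair of Hba-a1 carries an asterisk in either panel, and the pairs that pass join Slc4a1, Epb42, S100a8, S100a9, Camp, Lcn2 and Alas2.

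Wider lists of blood genes were counted in the same comparisons, and no gene of any list passed. For reference, 55.2% of all probe sets tested were positive in amygdala FC minus NH and 50.4% in hippocampus FC minus CS. Of 40 erythrocyte genes 21 were on the array, and their brightest probe sets had summed intensities with a median of 3659 in amygdala FC arrays, 3595 in CS arrays and 3404 in NH arrays, and of 4910, 4720 and 4617 in hippocampus. Such sums take no account of batch: 6 of the 10 NH arrays of each tissue are from the NH-only batches 1 and 7, where Hba-a1, a member of the list, averaged 9.30 and 9.88. Within batches, in amygdala FC minus NH, 6 of the 13 tested were positive (median -0.07), with Bpgm, which makes the red cell regulator of oxygen release, at 0.15 (SE 0.0851) and Gata1, the erythroid transcription factor, at -0.10 (SE 0.0559). In hippocampus FC minus CS, 12 of 14 were positive (median 0.04), against a median of 0.00 over all probe sets tested. Of the haem synthesis genes, 5 of 7 were positive in amygdala FC minus NH (median 0.02) and 6 of 7 in hippocampus FC minus CS (median 0.02).

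Of 40 neutrophil genes 30 were on the array. In amygdala FC minus NH, 2 of the 10 tested were positive (median -0.05), and in hippocampus FC minus CS 11 of 13 were (median 0.02). Their summed intensity had a median of 1346 in amygdala FC arrays, 1392 in CS arrays and 1384 in NH arrays, and of 1922, 1911 and 1948 in hippocampus. The ranges of these sums, which also pool the batches, overlapped between all arms. Mmp9, a granule protease, was at -0.10 (SE 0.0768) and Csf3r, the receptor of the neutrophil growth factor G-CSF, at -0.05 (SE 0.0659) in amygdala FC minus NH.

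Markers of other cells with access to blood, or of the tissue itself, were counted beside them for amygdala FC minus NH. Over all probe sets tested in that comparison, 55.2% were positive (median 0.01). Of lymphocyte markers 0 of 5 were positive (median -0.07), of platelet markers 1 of 2 (median 0.03), of endothelial markers 1 of 7 (median -0.04), of choroid plexus markers 0 of 2 (median -0.08), of meningeal and fibroblast markers 5 of 10 (median -0.01) and of hippocampal neuron markers 1 of 2 (median 0.09). Of microglia markers 8 of 9 were positive (median 0.09), with Csf1r at 0.13 (SE 0.0548), C1qb at 0.16 (SE 0.0715) and C1qa at 0.13 (SE 0.0571), each at an adjusted p of 0.894 in limma. Summed microglia markers had a median of 1720 in amygdala FC arrays (1606 to 1782), 1650 in CS arrays (1590 to 1713) and 1572 in NH arrays (1482 to 1677). These sums, too, pool the batches, and 6 of the 10 NH arrays are from batch 1. In hippocampus FC minus CS, 4 of 5 lymphocyte, 2 of 3 platelet, 7 of 8 endothelial and 2 of 4 choroid plexus markers were positive. So were 6 of 9 meningeal and fibroblast, 3 of 4 hippocampal neuron and 4 of 9 microglia markers. Over all probe sets tested in this hippocampus comparison, 50.4% were positive. The lists are short, and the erythrocyte and neutrophil lists include members described above. Lymphocyte, endothelial and hippocampal neuron markers leaned positive there as well, while microglia and choroid plexus markers did not. The part of any of these cells in the values of Hba-a1 was not tested.

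With array weights, which let limma give noisier arrays less say, 2 member probe sets passed in amygdala FC minus NH. Slc4a1 was at -0.19 (adjusted p = 0.0300) and the bright Lcn2 probe set at -0.20 (adjusted p = 0.0244). That setting called 911 probe sets, 12.2% of all, so 2 of 6 is to be read against that share.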

How the data were processed

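Each deposited number is the linear intensity of a probe set on an array, which the authors obtained with RMA, a multi-array average, according to the submitters' processing notes. No version or setting of RMA is given in the sources used here. Since RMA brings the distributions of arrays together, shifts common to most transcripts are lost. The number of arrays limits the precision.

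The log2 of each value was taken with nothing added. Of 12488 probe sets, 66 array controls were left out, and 7453 per tissue remained after the 40% with the lowest mean. The tissues were fitted separately in R 4.3.3 (limma 3.58.1, functions lmFit and eBayes) with 3 arms and the processing batch as a fixed block, and p-values were adjusted by Benjamini and Hochberg over all probe sets tested, with a threshold of 0.05, two-sided. Members below the filter come from the fit of 12422 probe sets. Batch was tested with limma's F-test in the same fit, and both tissues were joined in 1 fit for the 7242 probe sets that passed in both. A constant factor between the tissues cancels there, but a normalization that treats dim and bright values differently would not. Correlations used 100000 two-sided permutations of arrays within arm and batch, adjusted over 56 pairs of members or 14 globin relations. Scripts were tested on simulated data. Promoter and gene positions are RefSeq's.

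Every probe set of the members is named. Other genes are named where they passed between arms, where they were among the 5 most like Hba-a1 or S100a8, or as examples of 10 lists (erythrocyte, haem synthesis, neutrophil, lymphocyte, platelet, microglia, endothelial, choroid plexus, meningeal and hippocampal neuron genes). The globin relations and the batch differences of Hbb-b2 and of the shared alpha-globin probe set were chosen after values were seen. The members and lists were chosen with earlier results of these data known. The alternatives were other filters, no batch term or a random batch, single batches, quantile normalization, array weights, pairs of arms alone, averaged probe sets, trend and robust settings and each array left out.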

Additional observations from a re-analysis of the deposited data

Results flagged for a closer look

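Of 60 groups of arrays (a probe set in an arm of a tissue), 3 held 1 array whose gap to its nearest neighbour was large for the range of its group. Chance alone gives such a gap in about 1 group in 20, so 3 of 60 is no excess. Hba-a1 was at 9.32 on hippocampus NH replicate 64 in batch 7, below the next array at 9.85, and the group averaged 10.02 ± 0.290 (SD, n = 10). S100a9 was at 3.28 on amygdala CS replicate 23139, below the next array at 3.56, in a group that averaged 3.57 ± 0.146 (SD, n = 6). The dim Lcn2 probe set was at 3.67 on hippocampus CS replicate 75, above the next array at 3.36, in a group that averaged 3.33 ± 0.144 (SD, n = 8). S100a9 and this Lcn2 probe set lie below the brightness filter.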

How the results depend on the processing

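The count of member probe sets that passed between arms was 0 in each of the 6 comparisons under all alternatives run, with each array left out in turn included (0 to 0), with 1 exception: array weights gave 2 in amygdala FC minus NH, where they raised the calls on the whole array to 911, against 7 without weights. The cause was not tested. Of 1254 member differences recomputed, 90 changed sign, 0 of them called. The batch test in hippocampus called 1 member, Alas2, and 0 after quantile normalization or with only batches of more than 1 arm, which leaves fewer arrays. With no filter it also called 1, but that was the dim Epb42 probe set (adjusted p = 0.0285) and not Alas2 (0.0519), so Alas2 was lost under each alternative. In amygdala it called 0 members, and 2 with no filter (Hba-a1, adjusted p = 0.0496, and the dim Epb42 probe set, 0.0451) and 2 after quantile normalization (Hba-a1, 0.0443, and the bright Lcn2 probe set, 0.0428). Hba-a1 thus lay close to the threshold on either side, with adjusted p between 0.0443 and 0.0512 in these fits of all batches. With only batches of more than 1 arm, which left out batch 1, the limma F-test gave it an adjusted p of 0.648 in amygdala. Over all probe sets, leaving out 1 array moved the calls within 4 to 9 in amygdala FC minus NH, 1 to 3 in CS minus NH and 0 to 2 in the hippocampus comparisons, and single batches or other settings gave up to 911 and 38. Without arm and batch means removed, 11 of the 56 correlations changed sign, none of them called. Some called pairs were weaker then, such as S100a9 with Camp in hippocampus (r 0.39 against 0.78) and Epb42 with Lcn2 in amygdala (0.67 against 0.90). Others hardly moved, such as Slc4a1 with Epb42 in hippocampus (0.66 against 0.65). With the probe sets of a gene averaged, Epb42 with Lcn2 had r of 0.74 in amygdala (against 0.90) and 0.84 in hippocampus (against 0.74). No paired analysis was possible because no replicate number is shared between arms of a tissue. Signal near background limits S100a8, S100a9 and the dim Epb42 and Lcn2 probe sets, and 4 NH arrays per tissue limit every difference from NH.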

Other observations

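After the batch digit, the title numbers of 8 amygdala arrays split into 2 numbers that each also name a hippocampus array of the same arm. The labels do not say that the arrays share animals, no fit used such a link and no relation was tested. Amygdala NH array 16364, the lowest of its tissue for Hba-a1 at 8.93, would match hippocampus arrays 63 at 10.01 and 64 at 9.32, of which array 64 is the lowest of the hippocampus. Its Hbb-b2 level was 5.94, beside 6.77 and 6.44 on those hippocampus arrays. Amygdala CS array 21523, the highest of its tissue at 10.34, would match hippocampus arrays 15 at 10.40 and 23 at 10.36. Amygdala FC array 21927 stood at 9.73, in the middle of its arm, while hippocampus arrays 19 and 27 stood at 10.54 and 10.53, the highest FC arrays there.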
